A study of Mus musculus with 110 samples.

Results

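RNA held by tagged ribosomes of neurons was compared with the RNA of the tissue it was taken from, in 4 paired libraries of each kind out of 110 libraries in the series. The 8 libraries were chosen by their labels: the set n_ZFP_n_Rpl, condition ND, fraction IP or Input, with the same replicate numbers 1 to 4 in each fraction. Condition ND is NCAR with the Delta vector. NCAR is the group that the labels set against R6/2, a mouse line carrying a mutant huntingtin transgene that models Huntington's disease. Delta is the control AAV that stands against the AAV for a zinc-finger protein (ZFP), a repressor of mutant huntingtin, and both the IP and the Input libraries come from tissue that received it. The labels give R6/2 as the strain of every sample, NCAR included, name the cell type of the set as neurons, and describe the AAVs as specific to a cell type. They do not spell out NCAR or the set names, and they do not give the brain region, the age, the promoters of the vector and the tag, or whether a replicate is 1 mouse or a pool. The p-values below therefore measure the spread between these samples. The other groups used are the conditions NZ (NCAR with ZFP), RD (R6/2 with Delta) and RZ (R6/2 with ZFP) of the same set, with 4 pairs each. A further neuron set, hSyn, has 5 IP and 5 Input libraries of ND, and an astrocyte set, n_ZFP_a_Rpl, has 4 and 4.

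In the RiboTag method a ribosomal protein carries an HA epitope in chosen cells, and antibody to HA pulls down ribosomes with the messages they carry. The pulldown (IP) is set against the lysate (Input), so a message of the tagged cells becomes a larger share of the reads and a message of other cells, or an RNA that is not on ribosomes, becomes a smaller share. Striatal projection neurons, or SPNs, are inhibitory neurons that make up most neurons of the striatum. Those of the direct pathway carry the dopamine receptor Drd1 with the peptides substance P and dynorphin, and those of the indirect pathway carry Drd2 with enkephalin. Ppp1r1b encodes DARPP-32, the phosphatase inhibitor through which dopamine signals act in both kinds, and Penk encodes the enkephalin precursor.

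The Input libraries held 26.7 M to 28 M assigned reads and the IP libraries 38.4 M to 45.6 M. The first principal component separated IP from Input and held 77.3% of the variance. The deviations of an IP library and its same-numbered Input library correlated over genes (0.455 to 0.673), and the pairs were kept as a block in the test. Levels are CPM, the share of a library's reads, after TMM scaling. Differences between fractions are log2 of IP over Input ± the standard error, tested with edgeR's quasi-likelihood test with Benjamini-Hochberg adjustment over 15226 genes. In all, 39.4% of genes were higher in the IP and 37.2% lower (5997 and 5660 genes), and against a minimum of 2-fold 0.0525% were higher and 11.7% lower (8 and 1781 genes). A list of genes taken at random would on average give these shares, and the counts per list below are to be read against them. Scaling by total counts alone moved the median of all genes by -0.17 and gave 3971 genes higher and 7324 lower. Because all values are shares of a library, each difference is relative to the other genes. Where levels differ between pairs of these bulk samples, fewer cells of a type and less RNA per cell cannot be told apart. Where IP and Input differ, a message of other cells and an RNA that is not on ribosomes cannot be told apart from the ratio alone.

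Most genes of the neuronal lists were a larger share of the IP, with list medians below 2-fold. The messages of microglia, endothelial cells and the oligodendrocyte lineage were a much smaller share. Ppp1r1b was at 1080, 1290, 1690 and 1670 CPM in IP libraries 1 to 4 and at 640, 803, 1190 and 934 in Input libraries 1 to 4. Penk was at 1160, 1620, 2010 and 1760 in the IP and 678, 935, 1200 and 1040 in the Input. For both genes the IP exceeded its own Input in every pair, while the lowest IP library (number 1) lay below the highest Input library (number 3). Ppp1r1b was higher in the IP by 0.69 ± 0.05 (adjusted p = 6.98e-08) and Penk by 0.77 ± 0.03 (adjusted p = 2.64e-10) in the edgeR fit.

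**Figure D1:**
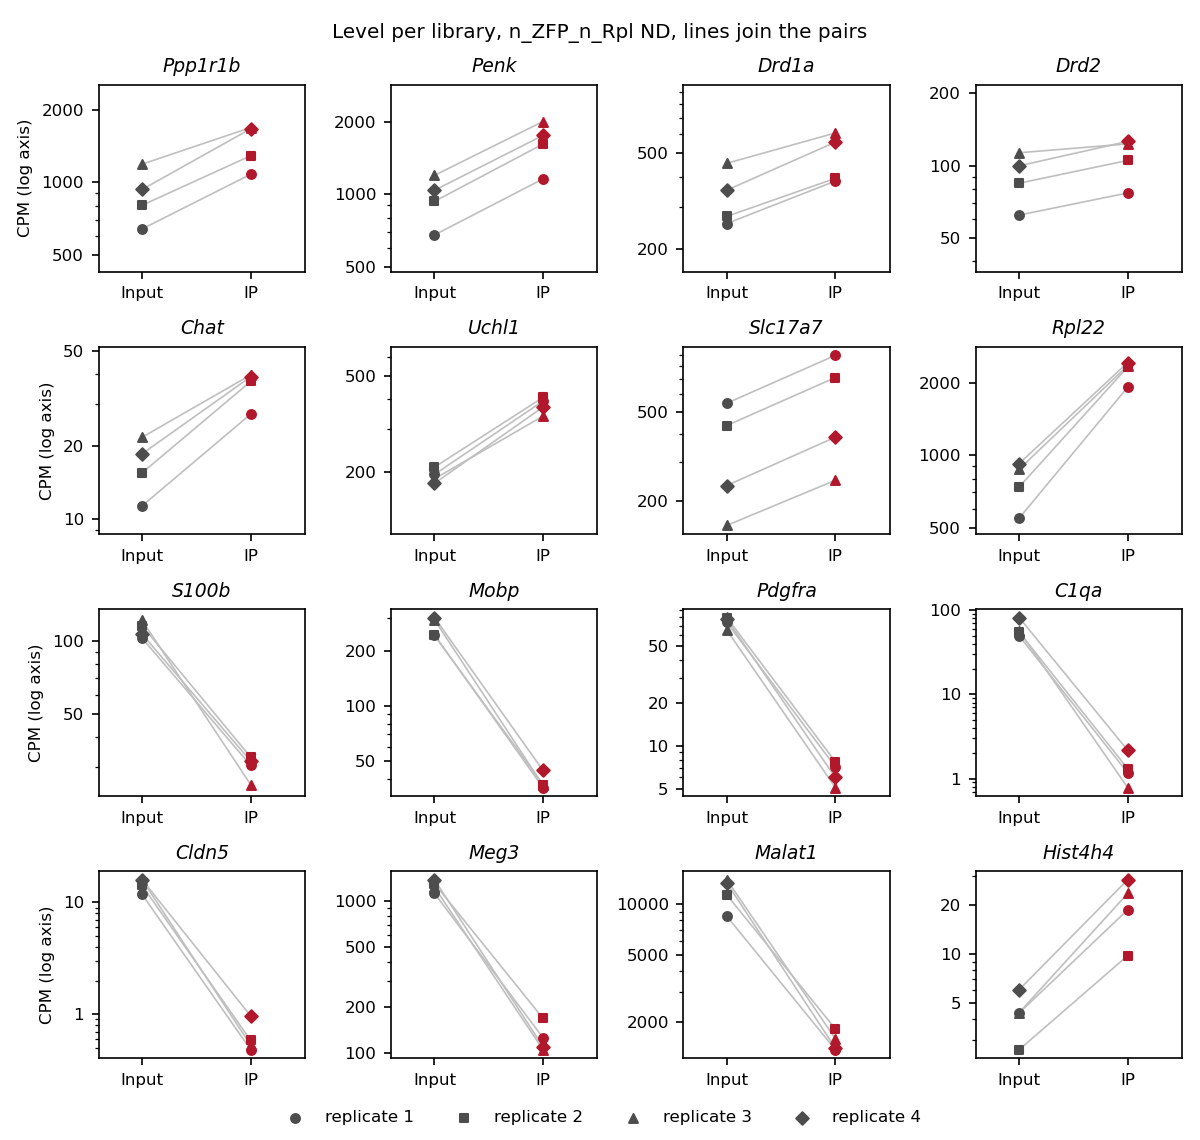
Levels of 16 genes in CPM (log axis) in the 4 Input and 4 IP libraries, with 1 marker shape per replicate number and lines joining each pair. The projection neuron genes rise in parallel lines from levels that differ between pairs, while C1qa, Cldn5 and Pdgfra fall by an order of magnitude or more (C1qa from 49.8 to 82.2 CPM down to 0.782 to 2.17).

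Rpl22, a protein of the large ribosomal subunit, is the usual carrier of the HA tag in this method, although the labels do not name the tagged protein. It was at 1920, 2330, 2360 and 2430 CPM in the IP and 547, 738, 875 and 923 in the Input. Every IP library lay above every Input library, and the difference was 1.57 ± 0.07 (adjusted p = 5.21e-08), which passed the 2-fold minimum. Its close relative Rpl22l1 went the other way, at 3.08 to 3.54 CPM in the IP and 7.04 to 8.07 in the Input, a difference of -1.16 ± 0.10. Whether Rpl22 reads include those of a tagged copy cannot be seen in counts per gene. Htt, the mouse huntingtin gene, was at 423 to 482 CPM in the IP and 333 to 360 in the Input (0.39 ± 0.03, adjusted p = 2.44e-07).

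Genes shared by both kinds of projection neuron were higher in the IP in 27 of 34 and lower in 3, with a median of 0.45 against 0.02 over all genes tested. Without the replicate block 14 were called higher and 1 lower, and with total counts alone 25 and 6. Pcp4, a calmodulin-binding peptide, was at 758 to 911 CPM in the IP and 429 to 597 in the Input (0.77 ± 0.04). Pde1b, a calmodulin-dependent phosphodiesterase, and Hpca, the calcium sensor hippocalcin, were higher by 0.72 ± 0.04 and 0.71 ± 0.05. Of these 3 genes, Pcp4 and Hpca had no overlap between IP and Input libraries.

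The 3 that were lower are all known in these neurons. Ryr1, a calcium release channel of the endoplasmic reticulum, was at 35.3, 45.3, 51.8 and 45.7 CPM in the IP and 64, 95.6, 143 and 108 in the Input. All 4 IP libraries lay below all 4 Input libraries (-1.17 ± 0.09, adjusted p = 5.53e-06). Lrrc10b was at -0.46 ± 0.07 and Rgs9, which switches off G protein signals downstream of dopamine receptors, was at -0.23 ± 0.05. Both overlapped between fractions, and both lost the call without the replicate block (adjusted p = 0.0533 and 0.29). Meis2, Cnr1, Kcnh4 and Ntrk2 did not pass the test, at -0.07, -0.02, 0.10 and 0.00. With total counts alone Meis2, Cnr1 and Ntrk2 were called lower (-0.24, -0.20 and -0.17, adjusted p = 2.52e-05, 0.0306 and 7.95e-05 in edgeR). Meis2 was also called lower without pair 4 (-0.09), and with all 32 samples in 1 fit Kcnh4 and Ntrk2 were called higher (0.17 and 0.08).

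Of 10 direct pathway genes 9 were higher and 1 lower (median 0.48), and of 10 indirect pathway genes 8 were higher and 0 lower (median 0.43). Without the block these counts were 5 and 1, and 5 and 0. The direct pathway receptor gene, listed as Drd1a, was at 383, 393, 607 and 556 CPM in the IP and 255, 273, 454 and 351 in the Input (0.55 ± 0.04). Drd2 was at 76.9, 105, 123 and 126 in the IP and 62.2, 84.4, 113 and 99.7 in the Input (0.27 ± 0.04). Both receptors were higher in the IP in every pair and overlapped between fractions. Their adjusted p without the block was 0.0589 and 0.295, against 5.5e-08 and 7.44e-05 with it.

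The peptide precursor genes were higher as well. Pdyn, the dynorphin precursor, was at 104, 154, 246 and 193 CPM in the IP and 59.9, 94.2, 140 and 104 in the Input (0.80 ± 0.04). Tac1, the substance P precursor, was at 198, 193, 303 and 261 against 108, 123, 181 and 146 (0.78 ± 0.04), with no overlap. Chrm4, a muscarinic receptor of direct pathway neurons, was higher by 0.53 ± 0.04 and Slc35d3, a transporter tied to Drd1 trafficking, by 0.68 ± 0.05. The transcription factor genes Isl1 and Ebf1 were higher by 0.43 ± 0.07 and 0.30 ± 0.05, Foxp2 by 0.37 ± 0.04 and Sfxn1, a mitochondrial serine transporter, by 0.19 ± 0.04. Eya1 was the 1 direct pathway gene that was lower (-0.39 ± 0.09, adjusted p = 0.00184).

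In the indirect pathway list Gpr6, a constitutively active receptor, led with 0.81 ± 0.06, from 63.3 to 105 CPM in the IP and 34.7 to 65.6 in the Input. Adora2a, an adenosine receptor, was at 230, 287, 380 and 377 in the IP and 153, 226, 279 and 239 in the Input (0.51 ± 0.05, adjusted p = 7.23e-07, or 0.0648 without the block). Plxdc1 was higher by 0.47 ± 0.06, the kainate receptor gene Grik3 by 0.46 ± 0.04, the guanylate cyclase gene Gucy1a3 by 0.39 ± 0.05 and Gpr52 by 0.19 ± 0.04. Sp9 and Ttc12 did not pass the test, at -0.04 ± 0.07 and -0.11 ± 0.12, and with total counts alone Sp9 was called lower (-0.21, adjusted p = 0.0215).

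Of 19 genes of interneurons, which are scarce in the striatum, 15 were higher and 0 lower. Their median was 0.84, against 0.45 for the shared SPN genes, a difference that was not tested. Chat, the enzyme that makes acetylcholine, was at 27.2, 37.2, 39.6 and 38.9 CPM in the IP and 11.3, 15.5, 21.8 and 18.6 in the Input. No IP library overlapped the Input (1.10 ± 0.07, adjusted p = 1.43e-08). The vesicular acetylcholine transporter gene Slc18a3 was higher by 1.02 ± 0.08, and the 6 cholinergic genes of the list, grouped after their values were seen, had a median of 0.97.

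Other interneuron classes were higher as well, with Pvalb at 0.93 ± 0.07, Npy at 0.85 ± 0.06 and Sst at 0.75 ± 0.08. Vip, Calb2, Chrna3 and Zic4 did not pass the test (0.06, -0.37, 0.10 and -0.13). Calb2 was called lower with total counts alone (-0.55, adjusted p = 0.0176 in edgeR) and without pair 3 or 4 (-0.55 and -0.47). Vip was called higher without pair 1 (0.35, adjusted p = 0.0131 in edgeR). Tacr3, a tachykinin receptor outside the list, was at 10.2 to 14.6 CPM in the IP and 4.16 to 8.75 in the Input (1.06 ± 0.10).

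All 19 pan-neuronal markers were higher, with a median of 0.66, and this count was 18 without the block and 17 with total counts alone. Uchl1, a ubiquitin hydrolase abundant in neurons, was at 394, 408, 341 and 372 CPM in the IP and 195, 209, 187 and 179 in the Input. The fractions did not overlap (0.98 ± 0.04, adjusted p = 2.07e-10). The neurofilament gene Nefh and the stathmin gene Stmn3 were higher by 0.91 ± 0.05 and 0.90 ± 0.03.

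The libraries differed in the summed levels of neuronal marker genes. Summed over 12 genes of cortical excitatory neurons, the level was 1350, 1000, 476 and 661 CPM in Input libraries 1 to 4 and 2000, 1510, 674 and 935 in IP libraries 1 to 4. The sum over the 34 shared SPN genes went 17600, 19900, 27400 and 22800 in the Input and 25700, 27100, 34600 and 32500 in the IP. Pair 1 was thus highest in cortical and lowest in SPN genes, and pair 3 the reverse, in both fractions. Within a pair the ratio of IP to Input sums varied little, from 141% to 151% for cortical and from 126% to 146% for SPN genes.

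Slc17a7, the vesicular glutamate transporter of cortical neurons, was at 894, 712, 248 and 386 CPM in the IP and 547, 435, 156 and 235 in the Input (0.70 ± 0.03). Of the cortical list 9 of 12 were higher and 1 lower with the pairs as a block (median 0.47), and 0 higher and 1 lower without it. The 1 lower gene was Rorb, a nuclear receptor of layer 4 neurons that astrocytes also express (-0.99 ± 0.06). Neurod1 and Cux2 did not pass the test.

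**Figure D2:**
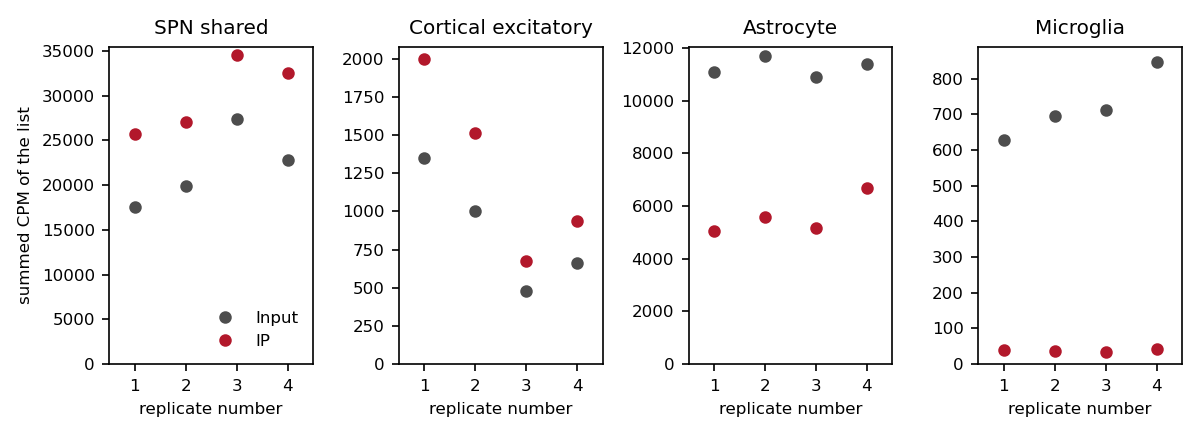
Summed CPM of 4 gene lists in each library, by replicate number, Input in grey and IP in red, with axes from 0. The SPN and cortical sums move in opposite directions between pairs in both fractions, and the microglia sum drops from 629 to 848 CPM in the Input to 33.9 to 42.1 in the IP.

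All 16 microglial genes were lower, with the lowest median (-4.93) of the cell type lists that had more than 1 gene tested, and their summed level in the IP was 4.77% to 6.23% of that in the paired Input. C1qa, a subunit of complement C1q, was at 1.17, 1.31, 0.782 and 2.17 CPM in the IP and 49.8, 55.2, 56.8 and 82.2 in the Input (-5.50 ± 0.10, adjusted p = 2.91e-12). Tyrobp, an adaptor of microglial receptors, had the lowest ratio of the genes with a mean of at least 5 CPM, with 0.092 to 0.279 CPM in the IP against 9.39 to 14 in the Input (-5.78 ± 0.20). The fractions stood far apart in every pair for both.

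The other subunits C1qc and C1qb were at -5.64 ± 0.19 and -5.46 ± 0.17. The protease gene Ctss, the receptor gene Csf1r, the integrin gene Itgam and the fractalkine receptor gene Cx3cr1 lay between -5.30 and -4.86, and Gpr34, Selplg, Pld4 and Tmem119 between -5.10 and -4.99. Aif1 kept more of its level, at -1.28 ± 0.29. Igj, the immunoglobulin joining chain, was at 0.381 to 0.989 CPM in the IP and 9.53 to 38.4 in the Input (-5.43 ± 0.14).

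Vascular genes split by cell type. The 17 genes were all lower, with a median of -1.42. The 10 endothelial genes had a median of -4.12 and the 7 mural genes, of pericytes and smooth muscle, a median of -1.24, a grouping made after the values were seen. Cldn5, the tight junction protein of brain endothelium, was at 0.482, 0.583, 0.529 and 0.965 CPM in the IP and 11.8, 14.2, 16 and 16 in the Input (-4.50 ± 0.13). Ly6c1 and Tek, a receptor for angiopoietins, were at -4.86 ± 0.15 and -4.58 ± 0.14.

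The pericyte receptor gene Pdgfrb was at 10.9, 11.7, 13.6 and 16.1 CPM in the IP and 28.5, 29, 33.9 and 31.2 in the Input (-1.24 ± 0.07), so that IP and Input stood apart but by much less than for Cldn5. The mural ratios ran from -1.42 to -0.58 and the endothelial ones from -4.86 to -0.50, with Itm2a at the upper end. Of 7 blood genes Alas2, of red cell heme synthesis, was the 1 with enough counts, at -5.00 ± 0.27, and the other 6 were at 0 in every IP library. The Input held 2.41 to 3.34 CPM over all 7. Those 6 did not pass the count filter, so their 0 in the IP says little about removal of blood RNA.

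Oligodendrocyte genes were lower in 15 of 15 (median -2.12), all beyond 2-fold. Mobp, a myelin protein, was at 36, 37.3, 37 and 44.6 CPM in the IP and 244, 242, 295 and 303 in the Input (-2.80 ± 0.05). Mbp, myelin basic protein, remained at 467 to 604 CPM in the IP against 2170 to 2710 (-2.27 ± 0.05). The summed level of the list in the IP was 20.9% to 26.4% of the Input, higher than the 4.77% to 6.23% of microglia in the same libraries.

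Precursor genes were lower in 9 of 10 (median -2.72). Gpr17, a receptor of committed precursors, and Pdgfra, their growth factor receptor, were at -3.74 ± 0.15 and -3.53 ± 0.07, and the sialidase gene Neu4 at -3.44 ± 0.13. Cacng4, an AMPA receptor auxiliary subunit, was the exception, at 29.3 to 47.8 CPM in the IP and 29.9 to 47.5 in the Input (0.01 ± 0.04).

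Astrocyte genes were reduced less. Of 22, 21 were lower and 0 higher, with a median of -1.13, and their sum was 45.5% to 58.6% of the paired Input. S100b, a calcium-binding protein, was at 30.4, 32.9, 25.3 and 31.7 CPM in the IP and 103, 116, 122 and 107 in the Input (-1.90 ± 0.08). The gap junction gene Gjb6 and the amino acid transporter gene Slc7a10 were at -1.74 ± 0.10 and -1.62 ± 0.10. The glial glutamate transporter Slc1a2 was still at 2530, 2590, 2090 and 2620 CPM in the IP against 5620, 5770, 5000 and 5340 (-1.15 ± 0.04).

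Gfap, the intermediate filament of astrocytes, did not pass the test. It was at 154, 242, 180 and 416 CPM in the IP and 186, 194, 196 and 332 in the Input (0.07 ± 0.12), and pair 4 was highest in both fractions. Kcnj10, the astrocytic inward rectifier, was at 45, 71.4, 74.9 and 60.5 in the IP and 156, 195, 248 and 162 in the Input (-1.60 ± 0.06). Choroid plexus and ependymal genes had 4 of 9 lower and 1 higher (median -0.14), or 1 and 0 without the block. Of all genes, 37.2% were lower and 39.4% higher with the block. Enpp2, which oligodendrocytes also express, was at -1.28 ± 0.12, Rarres2, Ccdc153 and Foxj1 lay between -0.35 and -0.28, and Clic6 was the higher one (0.24 ± 0.06). Ccdc153 lost its call in DESeq2 (adjusted p = 0.0987), with no filter, with all 32 samples in 1 fit and without pair 1 or 2. Foxj1 lost it with all 32 samples and without pair 1, Rarres2 without pair 1, and Clic6 with total counts alone. Ttr, transthyretin, did not pass the test, at 0.457 to 4.58 CPM in the IP and 0.413 to 3.35 in the Input.

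**Figure D3:**
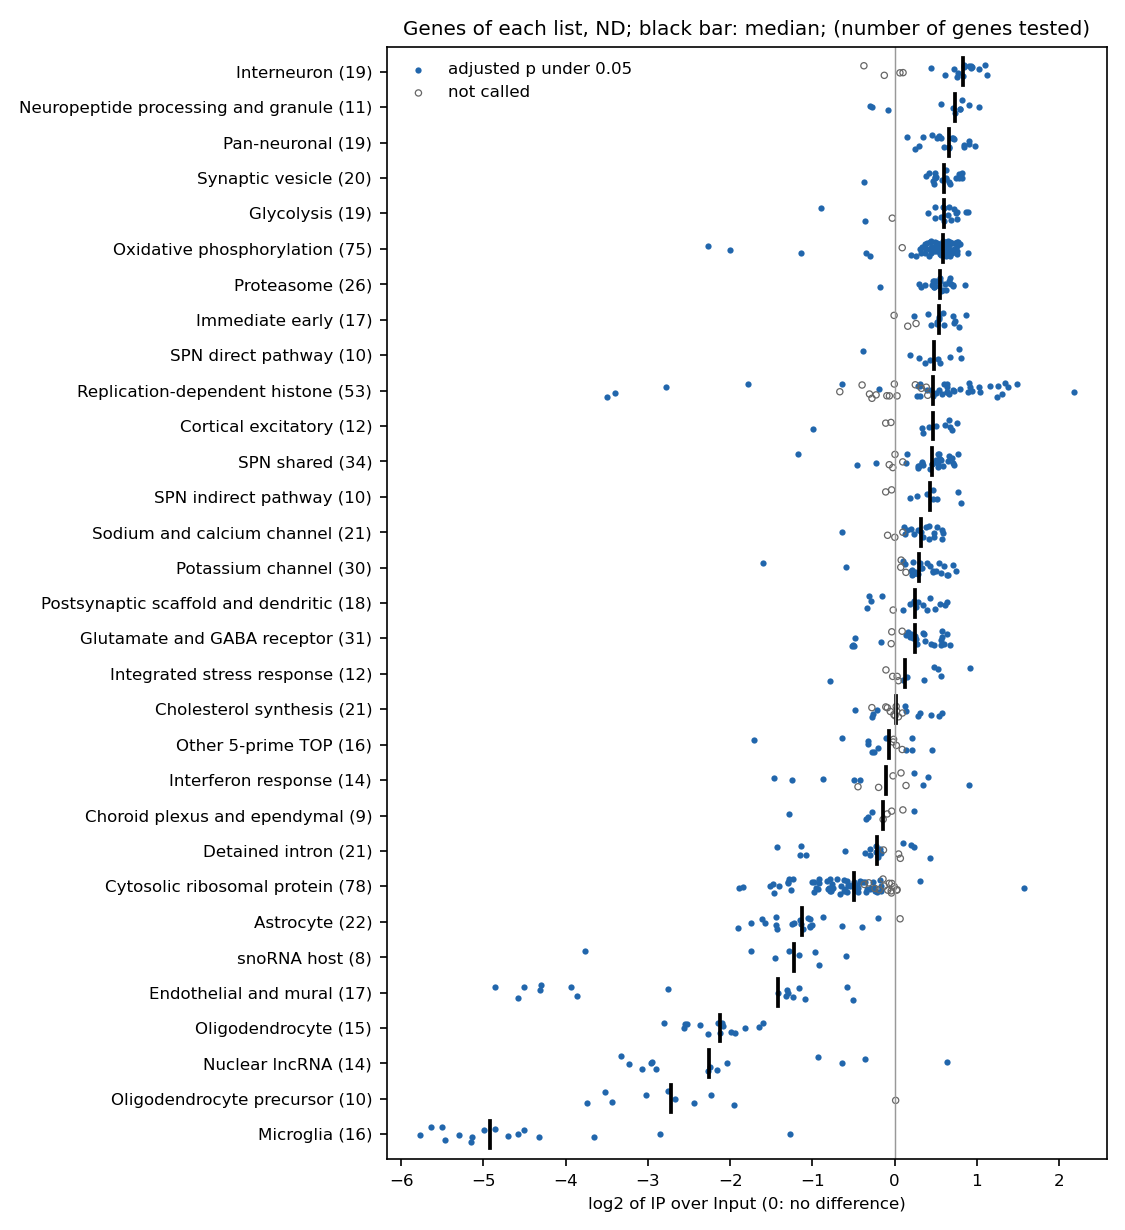
log2 of IP over Input for every gene tested in 31 lists, 1 point per gene, filled where the adjusted p was under 0.05, with a black bar at the median and the number of genes beside each name. The medians of the 6 neuronal cell lists lie between 0.43 and 0.84, while microglial genes extend left to -5.78.

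RNAs that are not translated were a smaller share of the IP. Of 14 nuclear long noncoding RNAs 13 were lower and 1 higher (median -2.26), and their summed level fell from 11500 to 17200 CPM in the Input to 2250 to 2820 in the IP. Meg3, an imprinted RNA of neuronal nuclei, was at 126, 169, 105 and 110 CPM in the IP and 1130, 1310, 1240 and 1390 in the Input (-3.33 ± 0.14, adjusted p = 2.41e-06). Malat1, a component of nuclear speckles, was at 1370, 1820, 1590 and 1400 against 8450, 11300, 13900 and 13300 (-2.91 ± 0.14). In both, the Input was well above the IP in every pair.

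Snhg11, a neuronal long noncoding RNA, was at -3.23 ± 0.11 and Mirg at -3.07 ± 0.15. Peg13 was the exception, at 516, 466, 419 and 461 CPM in the IP and 326, 290, 272 and 310 in the Input (0.64 ± 0.03, adjusted p = 3.2e-09). It lies within the span of Trappc9 (0.42 ± 0.04) and the strand of the reads is not known, so reads of both genes cannot be told apart. All 8 snoRNA host genes tested were lower (median -1.23), with Snhg8 at -1.74 ± 0.10 and Gas5, whose message carries a terminal oligopyrimidine start, at -1.46 ± 0.08. Rmrp, the RNA of the RNase MRP particle, was at 2.97 to 5.40 CPM in the IP and 96.7 to 157 in the Input (-4.73 ± 0.14).

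By RefSeq gene class, a grouping made after the values were seen, protein-coding genes had a median of 0.05 (14365 genes), long noncoding RNAs -0.89 (570 genes, 388 lower and 28 higher) and snoRNAs -2.82 (25 genes, 25 lower). Loci of miRNAs had a median of -2.93, with 74 of 83 lower and 1 higher. These libraries read fragments of longer RNA over the locus of a miRNA, and the mature miRNAs themselves were not measured.

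**Figure D4:**
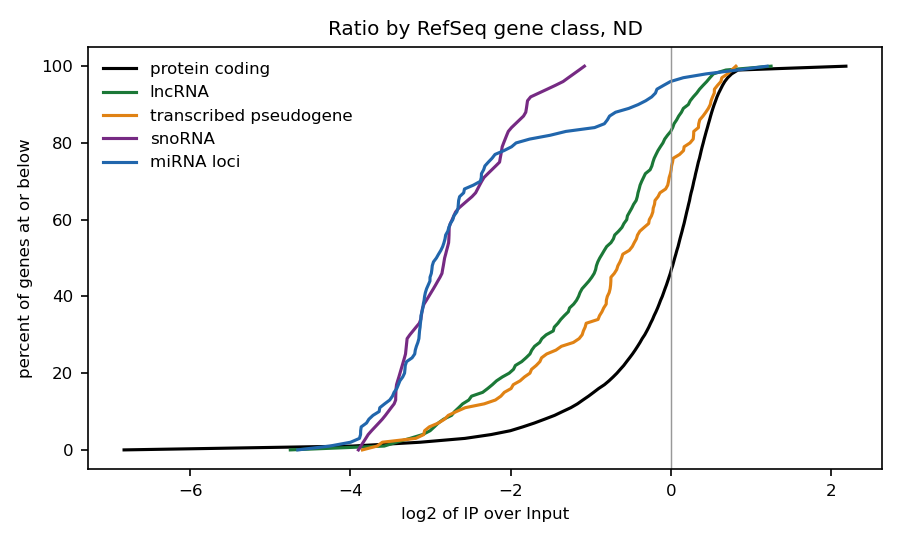
Cumulative distribution of log2 of IP over Input for 5 RefSeq gene classes (x axis: log2 ratio; y axis: percent of genes at or below it). The protein-coding curve is centred near 0.05, while miRNA loci and snoRNAs are centred near -2.93 and -2.82.

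The miRNA loci are shown by the mature sequences they encode, grouped by seed, the bases that pair with targets, so that loci of 1 seed can be read side by side. Mature sequences are from RefSeq (GRCm38.p6), 5′ to 3′, with the seed (bases 2 to 8) in capitals. Of the 83 loci, 80 had a hairpin or mature sequence, and among these Mir3960 and Mir6336 had no mature one. Of the sequences printed here, the first 4 share a seed, the let-7 seed. The fifth is encoded at 3 loci, and the last pair lies side by side on chromosome 11 and shares a seed.
let-7a-5p (Mirlet7a-1): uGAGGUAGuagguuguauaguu
let-7c-5p (Mirlet7c-1): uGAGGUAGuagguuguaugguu
let-7d-5p (Mirlet7d): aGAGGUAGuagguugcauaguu
let-7f-5p (Mirlet7f-1): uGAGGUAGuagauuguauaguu
miR-9-5p (Mir9-1, Mir9-2, Mir9-3): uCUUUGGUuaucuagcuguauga
miR-132-3p (Mir132): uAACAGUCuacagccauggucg
miR-212-3p (Mir212): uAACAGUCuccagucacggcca

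The 4 let-7 loci printed had ratios of -2.89 ± 0.52, -3.64 ± 0.51, -3.16 ± 0.39 and -3.01 ± 0.29 in that order, and a further one, Mirlet7a-2, was at -3.87 ± 0.59. Mirlet7f-1 (chr13:48537829-48537917) was at 0.0761, 0.25, 0.161 and 0.217 CPM in the IP and 1.10, 1.42, 1.87 and 1.30 in the Input. These are low levels. The 3 loci of miR-9 encode the same mature sequence and spread more widely. Mir9-1 (chr3:88215598-88215686) was at -3.12 ± 0.36 and Mir9-3 (chr7:79505264-79505353) at -2.08 ± 0.41.

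Mir9-2 (chr13:83738814-83738885) was at 1.85, 1.75, 1.38 and 1.45 CPM in the IP and 1.86, 1.52, 1.26 and 1.69 in the Input, with no difference that passed the test (0.02 ± 0.17, adjusted p = 0.906). It lies within the span of the long noncoding RNA C130071C03Rik, whose own row was at -1.42. Mir132 and Mir212, induced by neuronal activity from 1 precursor, were at -0.79 ± 0.31 and -1.34 ± 0.25, and both overlapped between fractions. The call for Mir132 (adjusted p = 0.0351) was lost without the block (adjusted p = 0.123), in DESeq2 (0.16), and without replicate 2, 3 or 4. The differences between loci were not tested. The 1 locus that was higher, Mir6236, was at 1.20 ± 0.15.

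Of the miRNA loci, 40 lie within the span of 1 protein-coding gene that was tested. Their median was -2.90 and that of the host genes 0.27, and 38 of the 40 loci had a lower ratio than their host. Some loci share a host, and that host is counted once for each locus. Rtl1 (0.32) spans Mir136, Mir3070a, Mir3070b, Mir432, Mir434, Mir493, Mir540 and Mir665, and Lingo2 (-0.15) spans Mir873a and Mir876. Mir1931, within Cdk17, a kinase gene on chromosome 10, is an example. The locus was at 0.0508, 0.278, 0.161 and 0.0241 CPM in the IP and 0.825, 1.66, 2.42 and 2.08 in the Input (-3.78 ± 0.38), and the message of Cdk17 was at 666, 660, 786 and 675 against 422, 429, 514 and 443 (0.62 ± 0.03). Host and locus thus went in opposite directions in every pair. The loci were compared by position only, and the strand of the host was not checked.

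Messages known to be held in the nucleus with retained introns were lower in 14 of 21 and higher in 4 (median -0.21; 17 and 1 with total counts alone). Clk1, a kinase of splicing factors, was at 23.4 to 32 CPM in the IP and 70.8 to 95.2 in the Input (-1.43 ± 0.07). The spliceosome gene Luc7l2 and the splicing regulator gene Pnisr were at -1.16 ± 0.04 and -1.13 ± 0.06. The 4 higher genes included Son (0.24 ± 0.04), Ddx5 (0.19 ± 0.04) and Luc7l (0.10 ± 0.03).

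Messages for cytosolic ribosomal proteins were a smaller share of the IP. Of 78 tested, 62 were lower and 2 higher (median -0.50), the latter being Rpl22 and Fau (0.31 ± 0.09). Without Rpl22 their summed level was 1990 to 2170 CPM in the IP and 2580 to 2940 in the Input, with no overlap. Many members have near-identical processed copies in the genome, so their counts are uncertain. Among the 29 with a mean of at least 20 CPM, 24 were lower and 0 higher (median -0.44), and among the 48 below it, 38 were lower and 1 higher (median -0.59).

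Rpl24, Rpl9 and Rpl17 had the lowest ratios of those with a mean of at least 1 CPM, at -1.84 ± 0.20, -1.52 ± 0.14 and -1.47 ± 0.16, all from levels under 6 CPM. Other messages with a 5′ terminal oligopyrimidine tract, the motif that couples translation to mTOR, were lower in 8 of 16 and higher in 4 (11 and 1 with total counts alone). The elongation factor gene Eef1a1 was at 946 to 1090 CPM in the IP and 1180 to 1410 in the Input (-0.33 ± 0.03), and Pabpc1, the poly(A)-binding protein gene, at -0.64 ± 0.05. The 4 higher genes were Btf3 (0.46 ± 0.06), Eif4b, Eef1d and Eef2. Eef2 was at 0.21 ± 0.03, or 0.03 with total counts alone, where the call was lost (adjusted p = 0.338).

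Replication-dependent histone genes, which are near-identical copies of each other, held 6 of the 8 genes that were higher beyond 2-fold, Hist4h4, Hist2h2bb, Hist1h4f, Hist1h4h, Hist1h4n and Hist2h4. The other two were Rpl22 and Gpx6, a glutathione peroxidase (1.43 ± 0.14). Hist4h4 was at 18.6, 9.78, 23.4 and 28.4 CPM in the IP and 4.37, 2.61, 4.39 and 6.06 in the Input (2.18 ± 0.09). In the whole list 34 of 53 tested were higher and 6 lower (median 0.47). Hist2h2be went the other way, at 1.40 to 1.83 CPM in the IP and 5.00 to 5.85 in the Input (-1.79 ± 0.13).

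Messages for energy metabolism moved together. Of 75 nuclear genes of oxidative phosphorylation 69 were higher and 5 lower (median 0.58). Ndufa4, a respiratory chain subunit, was at 223, 215, 237 and 209 CPM in the IP and 122, 118, 133 and 103 in the Input (0.90 ± 0.04). Ndufb2 and Atp5f1 were higher by 0.80 ± 0.05 and 0.77 ± 0.03. The 5 lower genes were Atp5g2, Ndufa4l2, Atp5l, Cox7a2l and Cox7c. Cox7c passed narrowly. It lost its call in DESeq2 (adjusted p = 0.112), with no filter, with all 32 samples in 1 fit, and without pair 2, 3 or 4. Atp5g2 and Atp5l were at under 4 CPM in every library and their family has processed copies.

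Glycolysis genes were higher in 16 of 19 and lower in 2 (median 0.60). Aldoa, an aldolase, was at 2000, 2020, 1940 and 2020 CPM in the IP and 1080, 1130, 1080 and 1030 in the Input (0.89 ± 0.03), with little spread within a fraction. Ldha and Tpi1 were higher by 0.86 ± 0.03 and 0.76 ± 0.03. Mpc1, the mitochondrial pyruvate carrier subunit gene, was at -0.36 ± 0.12. Gapdh, at -0.90 ± 0.15, had counts of only 1.94 to 4.66 CPM and has many processed copies, so its value is uncertain. Proteasome genes were higher in 25 of 26 (median 0.55), with Psmb5 at 0.85 ± 0.05 and Psma3 as the lower one (-0.18 ± 0.06). Psma3 lost its call in DESeq2 (adjusted p = 0.0812), with no filter, with all 32 samples in 1 fit and without pair 2 or 4. Cholesterol synthesis genes were split, with 7 of 21 higher and 4 lower (median 0.02), or 5 and 11 with total counts alone. Over all genes, 39.4% were higher and 37.2% lower in the main fit. Lss, Insig1, Sc5d and Tm7sf2 were lower, with Lss at -0.48 ± 0.06. Tm7sf2 lost its call in DESeq2 (adjusted p = 0.139), with no filter, with all 32 samples in 1 fit and without any 1 pair (0.0527 to 0.128).

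The machinery of transmitter and peptide release was higher in the IP, and most genes of its lists were also higher in the astrocyte pulldown, as given below. Of 20 synaptic vesicle genes 19 were higher (median 0.60). Slc32a1, the vesicular transporter of GABA, was at 203, 234, 295 and 310 CPM in the IP and 119, 148, 163 and 156 in the Input (0.82 ± 0.05), with no overlap. Rab3a was higher by 0.82 ± 0.03, and the active zone gene Rims1 was lower (-0.37 ± 0.05).

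Dense-core granule genes were higher in 8 of 11 (median 0.74). Scg2, secretogranin II, was at 571, 856, 885 and 755 CPM in the IP and 281, 412, 433 and 379 in the Input (1.03 ± 0.03), the highest of the list. Scg5 and Chga were higher by 0.90 ± 0.03 and 0.81 ± 0.04. The 3 lower genes were Scg3 (-0.30 ± 0.04), Pcsk1n (-0.27 ± 0.07) and Cpe (-0.09 ± 0.03), of which Cpe overlapped between fractions and did not pass the test without the block (adjusted p = 0.22).

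Receptors, channels and scaffolds were higher by less. Glutamate and GABA receptor genes were higher in 23 of 31 and lower in 5 (median 0.24). The lower genes were the kainate receptor genes Grik1 and Grik2, both at -0.51, with Gabrg1, Grm7 and Grm3. Sodium and calcium channel genes were higher in 17 of 21 (median 0.32), with Scn2a1 at 0.58 ± 0.03 and Cacna1d as the 1 lower gene (-0.64 ± 0.07). Potassium channel genes were higher in 25 of 30 (median 0.29), led by Kcnf1 (0.74 ± 0.04), and Kcnn2 and Kcnj10 were lower.

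Postsynaptic genes were split, with 13 of 18 higher and 4 lower (median 0.25). Camk2b was at 1150 to 1320 CPM in the IP and 724 to 891 in the Input (0.63 ± 0.03). Nrgn and Camk2a followed Camk2b as the highest called genes of the list. The lower genes were Shank3 (-0.34 ± 0.05), Ddn (-0.32 ± 0.04), Homer2 and Ppp1r9b. With total counts alone the 3 receptor and channel lists and the postsynaptic list had 15, 12, 17 and 9 genes higher and 6, 3, 4 and 5 lower.

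Activity-regulated genes were higher in 14 of 17 (median 0.54), or 7 without the block. Fos was at 25.2, 67.9, 88.7 and 103 CPM in the IP and 17.1, 42.6, 44.7 and 56.7 in the Input (0.79 ± 0.06), and Egr2 at 20.9, 41.8, 64.1 and 65.3 against 9.70, 24.6, 37.6 and 35.2 (0.86 ± 0.06). Pair 1 was lowest in both fractions for both genes, and fractions overlapped. Npas4, Ier2 and Btg2 did not pass the test. Without pair 1, Npas4 was called higher (0.42 ± 0.05, adjusted p = 1.14e-05 in edgeR). Targets of the integrated stress response were higher in 7 of 12 (median 0.12, or -0.05 with total counts alone). Asns, asparagine synthetase, was at 136 to 144 CPM in the IP and 69.7 to 78.8 in the Input (0.91 ± 0.04), and Atf5 was lower (-0.79 ± 0.11).

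Interferon response genes varied between pairs in both fractions, with sums of 170, 129, 97.3 and 290 CPM in Input libraries 1 to 4 and 214, 132, 77 and 311 in the IP. Of 14, 4 were higher (among them Isg15, Oasl2 and Stat2) and 5 lower (Irf7, Xaf1, Rsad2, Ifitm3, Ifit2), without the block 0 and 1, and with total counts alone 1 and 8. Among all genes, 39.4% were higher and 37.2% lower in the main fit. Isg15 was at 5.41, 0.945, 0.23 and 7.36 in the IP and 2.10, 0.744, 0.477 and 3.56 in the Input (0.90 ± 0.24), and Irf7 at 1.78, 1.28, 0.483 and 3.91 against 5.47, 2.84, 1.46 and 11 (-1.47 ± 0.13). Pairs 4 and 1 were high and pair 3 low for both. Without replicate 1 or replicate 4, Isg15 lost its call (adjusted p = 0.0567 and 0.0728), and so did Oasl2 (0.0504 and 0.0643). Stat2 lost it without replicate 1, 2 or 4 (0.13, 0.11 and 0.0684). With total counts alone neither Oasl2 nor Stat2 passed (0.0808 and 0.491).

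The same comparison was made in the other 3 conditions of the set, each with its own 4 pairs. Of the 1781 genes lower beyond 2-fold in ND, 76.8% were so in NZ, 72.5% in RD and 74.9% in RZ, which is 87%, 79.3% and 83.5% of the genes lower there (10.3%, 10.6% and 10.5% of those tested). Shared SPN genes were higher in 29, 30 and 30 of 34 in NZ, RD and RZ, with medians of 0.53, 0.70 and 0.64 against 0.45 in ND, and 38.7%, 38.7% and 38.9% of all genes were higher in those conditions and 37.8%, 38% and 40% lower. Penk was higher by 0.90, 1.04 and 1.16, against 0.77 in ND, and Ppp1r1b by 0.83, 0.90 and 0.98, against 0.69.

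Microglial genes were lower in 16 of 16 in each condition (medians -4.82, -4.89 and -5.18), and nuclear long noncoding RNAs in 13 of 14. Oligodendrocyte genes were lower in 15 of 15, with medians of -2.11, -1.23 and -1.53 against -2.12 in ND. Astrocyte genes had medians of -0.67, -1.09 and -0.87 against -1.13. Cortical genes were higher in 8, 0 and 4 of 12 against 9 in ND, and in RD their median was -0.21. These differences between conditions were not tested.

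The ND comparison was then set against the other neuron set and the astrocyte set by the test of the difference itself, over all genes. Against hSyn, 1.67% of 15987 genes had a higher ratio in n_ZFP_n_Rpl and 3.52% a lower one (267 and 563 genes). Leaving out pair 1, 2, 3 or 4 gave 148, 94, 119 and 115 higher and 409, 238, 357 and 255 lower. These differences were fitted without a block, because the hSyn numbers are not all the same in IP and Input. With the replicate number as a block, an alternative added after the data were seen in which an unmatched library stands alone, 550 were higher and 1045 lower. None of the 34 shared SPN genes, 19 interneuron genes, 19 pan-neuronal genes or 15 oligodendrocyte genes was called by edgeR, where 3, 1, 3 and 0 had an unadjusted p under 0.05, and DESeq2 called 0, 0, 3 and 0. With the block 2, 1, 3 and 0 of them were called. The medians of the difference were -0.10, 0.13, 0.04 and -0.01, and Ppp1r1b and Penk differed by -0.03 ± 0.20 and 0.04 ± 0.21.

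Astrocyte genes differed between the neuron sets. In 11 of 22 the ratio was lower in n_ZFP_n_Rpl and in 0 higher (median of the difference -0.63), and with the block in 14 and 0. Ratios within n_ZFP_n_Rpl were fitted with the block and those within hSyn without it, so their standard errors do not measure the same spread. Slc1a2 was at -1.15 ± 0.04 here and 0.09 ± 0.10 in hSyn, a difference of -1.26 ± 0.14 (adjusted p = 0.000273). Kcnj10 was at -1.60 ± 0.06 against 0.11 ± 0.23 (difference -1.74 ± 0.32, adjusted p = 0.00685). The transcription factor gene Tead1, Chrdl1, and the sodium pump subunit gene Atp1b2, all known in astrocytes, differed by -1.74 ± 0.32, -1.60 ± 0.35 and -1.56 ± 0.27, and Rmrp by -1.54 ± 0.27. Each of these 6 genes was also called with the replicate block (adjusted p = 0.00163 to 0.0491).

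Ribosomal protein genes had a higher ratio than in hSyn in 23 of 79 and lower in 0, and oxidative phosphorylation genes in 24 of 76 and 0. Against its own Input, hSyn had 4649 of 15200 genes higher and 4949 lower. Ribosomal protein genes were higher there in 1 of 79 and lower in 71, oxidative phosphorylation genes in 54 of 76 and 5. Rpl32 was at -0.16 ± 0.04 here and -1.10 ± 0.06 in hSyn, a difference of 0.91 ± 0.09 (adjusted p = 5.18e-05). Rpl22 was also higher here, by 0.83 ± 0.18. Over all genes tested, called or not, the difference reached 5.7, and named genes were limited to a mean of at least 5 CPM and no overlap. The highest named genes were Spp1, osteopontin (2.22 ± 0.53), the transporter gene Abcg2 (1.74 ± 0.27) and the microglial receptor gene Trem2 (1.67 ± 0.37). The lysosomal protease gene Ctsd differed by 0.88 ± 0.23. Spp1 and Ctsd lost the call with the replicate block (adjusted p = 0.0999 and 0.066) and without any 1 pair and Trem2 without pair 2 or pair 4.

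Against the astrocyte set, 22.4% of 15815 genes had a higher ratio and 20.6% a lower one (3546 and 3265 genes), and with the replicate number as a block 4943 and 4086 genes did. Astrocyte genes were lower in 22 of 22 (median of the difference -2.89), including Gfap (-1.84 ± 0.39, adjusted p = 0.00143). The lowest named genes, Slc25a34, Kirrel2, Nrarp, Apln and Timp4, differed by -3.80 ± 0.18 to -3.68 ± 0.21. Apln, the apelin precursor, was at 4.21 to 5.68 CPM in the neuronal IP and 22 to 29.6 in its Input (-2.41 ± 0.10), and at 1.26 ± 0.06 in the astrocyte IP. Oligodendrocyte genes were also lower in 15 of 15 (median -1.03).

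Shared SPN genes had a higher ratio than in the astrocyte set in 26 of 34 and a lower one in 1 (median 0.71), and Ppp1r1b and Penk differed by 0.69 ± 0.23 and 0.58 ± 0.22 (adjusted p = 0.0238 and 0.0418). Pan-neuronal genes were higher in 7 of 19 and lower in 0 (median 0.17), or in 11 and 1 with the block. Interneuron genes were higher in 0 and lower in 6 of 19 (median -0.60), or in 1 and 13 with the block. Against its own Input, the astrocyte pulldown had 5973 of 15371 genes higher and 5902 lower. Interneuron genes were higher there in 16 of 19 and lower in 0, pan-neuronal genes in 15 of 19 and 1. Synaptic vesicle genes were higher in 13 of 20 and lower in 2, granule genes in 10 of 11 and 1. Glycolysis genes were higher in 16 of 19 and lower in 3, proteasome genes in 25 of 26 and 1. Oxidative phosphorylation genes were higher in 55 of 75 and lower in 9, ribosomal protein genes in 1 of 79 and 73. Histone genes were higher in 26 of 53 and lower in 5, nuclear long noncoding RNAs in 1 of 14 and 12. Shared SPN genes were higher in 1 of 34 and lower in 24. Chat was at 1.10 ± 0.07 in the neuronal pulldown and 1.52 ± 0.08 in the astrocyte pulldown, a difference of -0.44 ± 0.24 that did not pass without the block (adjusted p = 0.148) and passed with it (-0.42 ± 0.12, adjusted p = 0.0113). Over all genes tested, called or not, the difference reached 3.51, and named genes were limited to a mean of at least 5 CPM and no overlap. The highest named genes were the mural genes Vtn (2.65 ± 0.28) and Abcc9 (2.33 ± 0.24), Atp13a5 (1.81 ± 0.18), and the microglial genes Ctss (1.84 ± 0.40) and Fcgr3 (1.56 ± 0.42). All 5 were below their Input in both pulldowns, for example Vtn at -1.42 ± 0.15 and -4.03 ± 0.13.

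**Figure D5:**
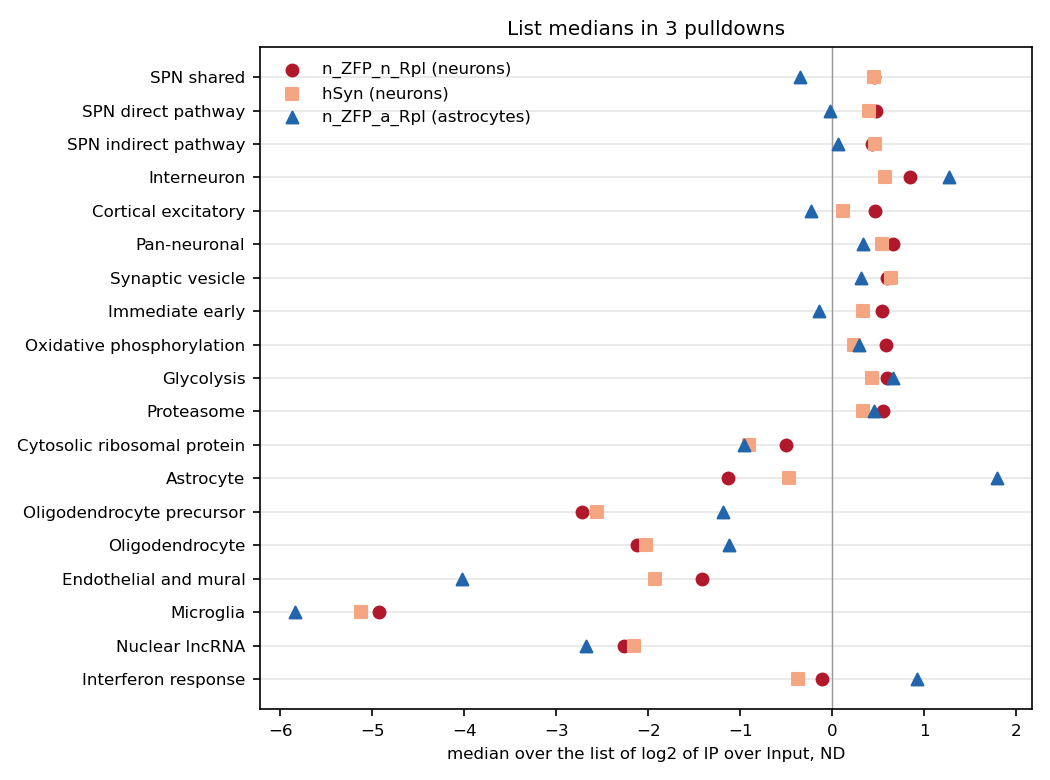
Median over each of 19 gene lists of log2 of IP over Input in condition ND, for the neuron sets n_ZFP_n_Rpl and hSyn and the astrocyte set n_ZFP_a_Rpl (x axis: log2 ratio, 0 meaning no difference). The neuron sets lie close for SPN genes (0.45 and 0.45) and apart for astrocyte genes (-1.13 and -0.47), where the astrocyte set is at 1.79.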

How the data were processed

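RiboTag pulldown RNA and Input RNA had been sequenced from TruSeq libraries. The submitters' processing notes name STAR, HTSeq and mm10; their versions, and whether reads were counted by strand, are not stated there. What the authors deposited is a table of raw read counts by gene symbol, 24060 lines long. The 4 lines whose symbol occurs more than once were dropped. RefSeq (GRCm38.p6) matched 23901 symbols, synonyms included, and gave gene classes and spans.

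Low genes were removed with filterByExpr (count minimum 10, total minimum 15). The test was edgeR 4.0.16 in R 4.3.3 (TMM, robust quasi-likelihood, Benjamini-Hochberg at 0.05), with glmTreat for a minimum log2 of 1 and DESeq2 1.42.0 as an alternative. The pair was a block. The labels number the libraries without stating a pairing, and every IP library correlated best with the Input library of its own number (0.455 to 0.673). Differences between sets were interaction terms without a block, with the block as an alternative. Each standard error is the log2 ratio over the root of its F statistic. The code was tested on simulated counts.

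The members and lists were chosen with earlier results of these data known. Genes named are the 15 highest and 15 lowest with a mean of at least 5 CPM and no overlap (Gm, Rik, -ps and sex-linked symbols passed over), 5 each way per difference between sets, and up to 3 each way per list with a mean of at least 1 CPM, with the SPN pathway genes, Htt, Rpl22 and Rpl22l1 always; some of them are not reported here. List members outside this rule, further well-known markers, miRNA loci, Cdk17, Trappc9 and Gpx6 were added after their values were seen. Near-identical genes (those of histones and ribosomal proteins, Gapdh) may gain or lose reads to relatives, and overlapping or antisense genes to neighbours.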

Additional observations from a re-analysis of the deposited data

Results flagged for a closer look

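Of 420 sets of 4 levels checked (210 genes named in the text, in each fraction), 24 had 1 library apart from the other 3 by Dixon's ratio of gap to range, past its 95% critical value, and chance gives about 1 in 20. Replicate 4 stood apart most often. In the Input it was highest for Gfap (ratio 0.931, 332 CPM against 196 in the nearest library), Ifitm3 (0.933), Clk1 (0.901), Fcgr3 (0.865) and Psma3 (0.844), and lowest for Gjb6 (0.949) and Eef2 (0.893). In the IP it was highest for Atp13a5 (0.976), Mbp (0.916, 604 CPM against 479), Mirlet7c-1 (0.903), Scg5 (0.89), Ifitm3 (0.885), Igj (0.85) and Mobp (0.845). Replicate 3 was highest in the IP for Sfxn1 (0.996) and Cdk17 (0.888), highest in the Input for Rarres2 (0.974), Ccdc153 (0.881) and Ly6c1 (0.844), and lowest in the Input for Slc25a34 (0.868). Replicate 2 was highest for Pabpc1 in the IP (0.98) and Ier2 in the Input (0.832). Replicate 1 was highest for Lss in the Input (0.88) and lowest for Sp9 in the Input (0.882).

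The log2 ratio of IP over Input differed between sets, by the interaction term, for the 20 genes named for it. Against hSyn it was higher for Spp1 (2.22), Abcg2 (1.74), Trem2 (1.67), Rpl32 (0.91) and Ctsd (0.88), and lower for Tead1 (-1.74), Kcnj10 (-1.74), Chrdl1 (-1.60), Atp1b2 (-1.56) and Rmrp (-1.54). Against the astrocyte set it was higher for Vtn (2.65), Abcc9 (2.33), Ctss (1.84), Atp13a5 (1.81) and Fcgr3 (1.56), and lower for Slc25a34 (-3.80), Kirrel2 (-3.73), Nrarp (-3.73), Apln (-3.68) and Timp4 (-3.68).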

How the results depend on the processing

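The counts over all genes in ND were 5997 higher and 5660 lower. Leaving out 1 pair gave 5594 to 5867 higher and 5364 to 5594 lower, and the fit with no replicate block 4627 and 4849. Total counts alone gave 3971 higher. Genes higher beyond 2-fold numbered 8, or 3 with total counts alone, 13 with all 32 samples in 1 fit and 5 in DESeq2. Without the block they numbered 5 in NZ, 5 in RD and 3 in RZ, against 8, 8 and 16 with it. The count of genes higher than in hSyn, 267, depended most on the setting, at 416 with RLE factors, 889 with no filter, 761 in DESeq2, 550 with the replicate block and 94 to 148 without 1 pair. The count lower than in hSyn, 563, was 265 with no filter, 1045 with the block and 238 to 409 without 1 pair. With the replicate block, the difference to the astrocyte set gave 4943 higher and 4086 lower. The cause of these shifts was not tested.

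With total counts alone the sign turned for the median of the stress response list (-0.05), for Cacng4 (-0.16), Ntrk2 (-0.17), Eef1d (-0.03) and Luc7l (-0.08), and with all 32 samples in 1 fit for the median of the other 5′ terminal oligopyrimidine messages (0.01). Without the block, besides genes already given, Isl1, Ebf1, Gpr52, Sfxn1, Fos, Egr2, Slc17a7, Rims1, Grik1, Homer2, Fau, Cox7c, Luc7l, Mpc1, Psma3, Sc5d, Tm7sf2, Clic6, Rarres2, Ccdc153, Foxj1 and the interferon genes other than Xaf1 lost their call. Chrdl1 lost its difference to hSyn without pair 1 (adjusted p = 0.0512). Genes under about 1 CPM, the miRNA loci among them, rest on few reads and have the widest errors.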
